A study of Homo sapiens with 102 samples.

Results

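The acetylations of histone H3 at lysine 14 (H3K14ac) and of histone H4 at lysine 8 (H4K8ac) were followed on synthetic human artificial chromosomes (HACs) through 3 points of the cell cycle, in 12 of the 102 libraries of the series. The 12 libraries were chosen by their labels alone: each acetylation in each of 2 cell lines, HAC 1-20 and also HAC 4-65, after thymidine, which holds cells at the border of G1 and S phase, after colcemid, which holds them in metaphase, and at 3 h after release from colcemid, in early G1. Both lines derive from single colonies of HT1080, a human fibrosarcoma line, and carry a HAC built from repeat units of centromeric alphoid DNA. The centromere unit (CenU) has CENP-B boxes, the binding site of the centromere protein CENP-B, whereas in the non-centromere unit (NCU) these boxes are mutated. Every unit carries a position code, a short unique sequence that was amplified from the immunoprecipitated DNA and counted, so that the units of the construct can be told apart. The paper reports that only some of the CenU codes were single-copy in each line. The reads of the other codes, and their CENP-A density, pool several places of the HAC.

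Acetylation of lysines in the histone tails is a mark of open, transcriptionally permissive chromatin. KAT7 is an acetyltransferase that modifies H3K14 and lysines of the H4 tail, and it has been linked to the loading of CENP-A, a variant of histone H3 found at active centromeres. In human cells, new CENP-A is loaded in early G1, after mitosis. H3K14ac lies on histone H3, which CENP-A replaces in its own nucleosomes, whereas H4 is present in both kinds of nucleosome.

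A CenU code was taken as carried by a line where its median share over the 49 libraries of that line was at least 0.1% of the CenU reads. By this rule 61 codes were carried in HAC 1-20 and 75 in HAC 4-65, of which 27 were carried by both. Besides the 3 stages, the 49 libraries cover untreated cells and cells given a control siRNA (siControl). They also cover cells given an siRNA against KAT7 (siKAT7) or against HJURP, a CENP-A deposition factor (siHJURP). The carried codes of each line were split into 3 classes of near-equal size by their CENP-A density in untreated cells, which were measured in libraries other than the 12 described here. The CENP-A dense class held 20 codes in HAC 1-20 and 25 in HAC 4-65. The 12 libraries held between 11648 and 738633 reads matched to a code, with a median of 305140. The shallowest were the thymidine libraries of HAC 4-65, with 2757 CenU reads for H3K14ac and 18385 for H4K8ac. Each library was 1 sample, made from the pooled DNA of 3 ChIP reactions, so that a change between stages within a line had no replicate and no test, and the lines were the only repeat.

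The codes that the results below turn on are shown here, since the reads were told apart by these letters alone. All the CenU codes had 23 bases, and the 6 positions that varied among them are in capitals. T036, T048 and T055 had the highest H4K8ac against H3K14ac in HAC 4-65 averaged over the 3 stages, T067 had the highest and T082 the lowest such average in HAC 1-20, and T109, T076 and T078 were nearly absent from a release library.
T036: ggggaaaaAGcccACtttACggg
T048: ggggaaaaAGcccCCtttCCggg
T055: ggggaaaaACcccTGtttTGggg
T067: ggggaaaaTAcccAGtttAGggg
T082: ggggaaaaTTcccATtttATggg
T109: ggggaaaaTGcccCAtttCAggg
T076: ggggaaaaTAcccGCtttGCggg
T078: ggggaaaaTAcccCTtttCTggg
The variable letters held from 0 to 5 G or C. The usual share of a code was its median over the 6 other libraries of the same line and antibody, siRNA libraries included. Across the carried codes of a library, the deviation from this share and the number of G and C letters had a Pearson correlation between -0.26 and 0.20 in the 12 libraries. It is given as a description of codes that share a library.

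The code listed as T001 and the code listed as T072 were exchanged between the list of codes and the construction primers, where the primer of unit 001 held the letters listed for T072 and the reverse. The sequence listed for T001 was the following one.
T001: ggggaaaaTAcccTCtttTCggg
T072: ggggaaaaAAcccAAtttAAggg
T001 took between 1.03% and 2.47% of the CenU reads of the 12 libraries. T072 took between 0.0363% and 0.0934%, below the limit for a carried code in every library. The names are used here as the count files give them.

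The first comparison asked how much of each acetylation lay on CenU against NCU at each stage. H4K8ac had more CenU reads per NCU read than H3K14ac in each line at each stage. In HAC 1-20, H3K14ac stood at 0.228 CenU reads per NCU read after thymidine, 0.0809 after colcemid and 0.180 after release. H4K8ac stood at 0.396, 0.228 and 0.380 in the same order. In HAC 4-65, H3K14ac stood at 0.310, 0.203 and 0.198, and H4K8ac at 0.651, 0.473 and 1.13. In both lines and for both acetylations the colcemid library was below the thymidine library. The release library was above the colcemid library in 3 of the 4 series, and for H3K14ac in HAC 4-65 the values of these stages were nearly equal. The H4K8ac release library of HAC 4-65 was the only one of the 12 with more CenU than NCU reads, and its NCU codes were scattered more widely than those of any of the 98 libraries of both lines, as described below.

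On the log2 scale the ratio of CenU to NCU reads was higher for H4K8ac than for H3K14ac by 1.36 ± 0.60 (SD over 6 pairs of line and stage), a factor of 2.57 at the mean, and the difference was positive in 6 of 6 pairs, from 0.80 to 2.51. The exact two-sided sign-flip permutation test over the 64 arrangements of the 6 pairs gave p = 0.03125, the smallest it can give, and 0.046875 after Benjamini-Hochberg adjustment over the 3 measures tested in this way. Without the pairs at release, which hold both widely scattered libraries, the mean was 1.15, and 4 pairs cannot go below p = 0.125 in the exact test. The pairs came from 2 lines, so the 6 differences are not fully independent.

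**Figure D1:**
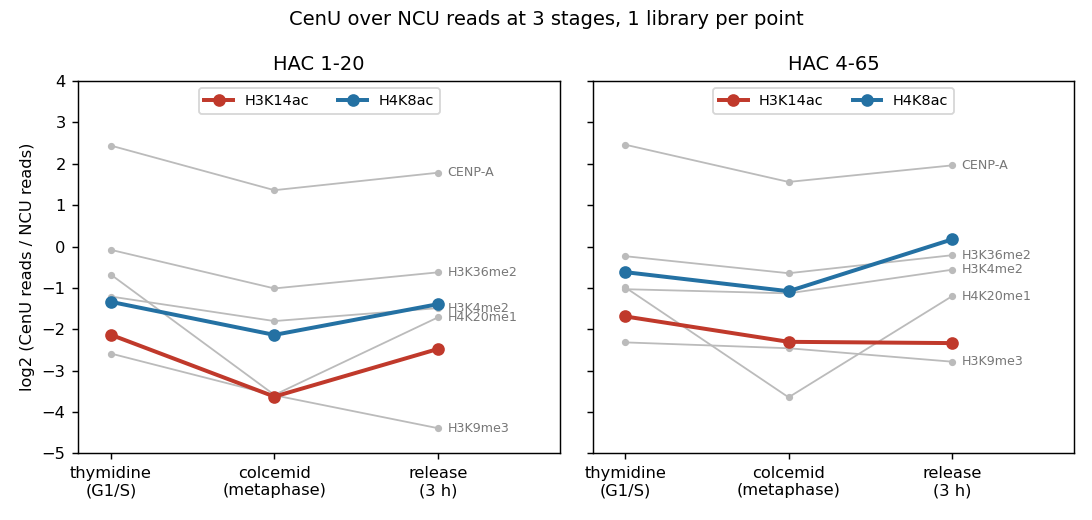
The log2 ratio of CenU to NCU reads is plotted at thymidine, colcemid and release for HAC 1-20 (left) and HAC 4-65 (right), with 1 library per point, H3K14ac in red, H4K8ac in blue and the 5 other antibodies in grey. H4K8ac lies above H3K14ac at every stage, and every line goes down from thymidine to colcemid.

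From thymidine to colcemid the log2 ratio of CenU to NCU reads changed by -1.49 for H3K14ac and by -0.80 for H4K8ac in HAC 1-20, and by -0.61 and -0.46 in HAC 4-65. The 5 other antibodies were lower after colcemid as well, in 5 of 5 cases in each line. Their changes ran from -2.90 for H4K20me1 to -0.59 for H3K4me2 in HAC 1-20, with a median of -1.01, and from -2.66 to -0.10 for the same marks in HAC 4-65, with a median of -0.41. The acetylations thus lay inside the range of the other antibodies, and CENP-A itself changed by -1.08 and -0.90. For scale, the ratio also differed between the untreated and siControl libraries, which were not held at a stage. From untreated to siControl it changed by 0.48 for H3K14ac and 0.11 for H4K8ac in HAC 1-20, and by 0.31 and 0.51 in HAC 4-65. The colcemid change of H4K8ac in HAC 4-65 was thus no larger in size than that difference. The reads are relative within a library, so that less acetylation on CenU and more on NCU cannot be told apart.

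From colcemid to release the ratio changed by 1.15 for H3K14ac and 0.74 for H4K8ac in HAC 1-20. In HAC 4-65 it changed by -0.03 for H3K14ac and by 1.25 for H4K8ac. Of the 5 other antibodies 4 were higher after release in each line, the exception being H3K9me3, a mark of heterochromatin. Over the whole course, from thymidine to release, H3K14ac ended lower in both lines, at -0.34 and -0.64. H4K8ac ended near its start in HAC 1-20, at -0.06, and higher in HAC 4-65, at 0.79.

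The second comparison went code by code from thymidine to colcemid. Counted per NCU read, H3K14ac was at least 2-fold lower on 43 of the 61 carried codes in HAC 1-20 (70.5%) and on 31 of 75 in HAC 4-65 (41.3%). H4K8ac was at least 2-fold lower on 28 of 61 (45.9%) and on 23 of 75 (30.7%). The CENP-A dense codes were above these shares in all 4 cases, with 16 of 20 and 17 of 25 codes for H3K14ac and 11 of 20 and 15 of 25 for H4K8ac. The CENP-A sparse codes were below them, with 12 of 20 and 5 of 25 for H3K14ac and 7 of 20 and 1 of 25 for H4K8ac. A code at least 2-fold higher was rare, with 0 of 61 (0%) for each acetylation in HAC 1-20, 3 of 75 (4%) for H3K14ac in HAC 4-65 and 4 of 75 (5.33%) for H4K8ac, all 4 of them in the sparse class.

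Measured as a share of the CenU reads, which sets aside the change of all codes together, the median of the dense codes was below that of the sparse codes in all 4 series. The difference of the medians was -0.79 (HAC 1-20) and -1.19 (HAC 4-65) for H3K14ac on the log2 scale, and -0.47 and -1.38 for H4K8ac. In HAC 4-65 the shift in H4K8ac went along with the code numbers, which give the order of the units in the construct, whereas the HACs are rearranged and their order was not used here. The codes from T002 to T014, 13 carried codes that were all sparse, had a median change of 1.07 in share, and 12 of them were higher. The codes from T030 to T050, with 20 dense codes among 21, had a median of -0.59, from -1.63 to 0.58. Where both libraries had at least 100 reads on a code, the largest gains of share for H4K8ac were T018, T002 and T003, with T003 going from 1.31% to 3.21% of the CenU reads. The largest losses were T078, T073 and T032, with T073, a dense code, going from 1.94% to 0.565%.

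In HAC 1-20 the changes of H4K8ac were smaller, with an SD over the carried codes of 0.72. The largest gains of share were those of the sparse codes T107, from 0.339% to 1.17% of the H4K8ac CenU reads, and T108, from 0.356% to 0.948%, and of the dense code T080, from 1.49% to 3.57%. The largest losses were those of T118, a middle code, from 3.12% to 0.834%, and of the sparse codes T097, from 2.63% to 0.784%, and T099, which ended at 0.638%. Sparse codes were thus among both. The codes T111 to T116, in which all 6 were dense, had a median change of -0.59, and the codes T070 to T083, with 11 dense among 13, one of -0.12.

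Fewer of the NCU codes of the same libraries differed 2-fold in share at this step. From thymidine to colcemid at least a 2-fold change of share in either direction was seen for H3K14ac on 44.3% of the CenU and 3.12% of the NCU codes in HAC 1-20, and on 42.7% and 9.47% in HAC 4-65. For H4K8ac it was seen on 16.4% and 4.17% in HAC 1-20 and on 33.3% and 5.26% in HAC 4-65.

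**Figure D2:**
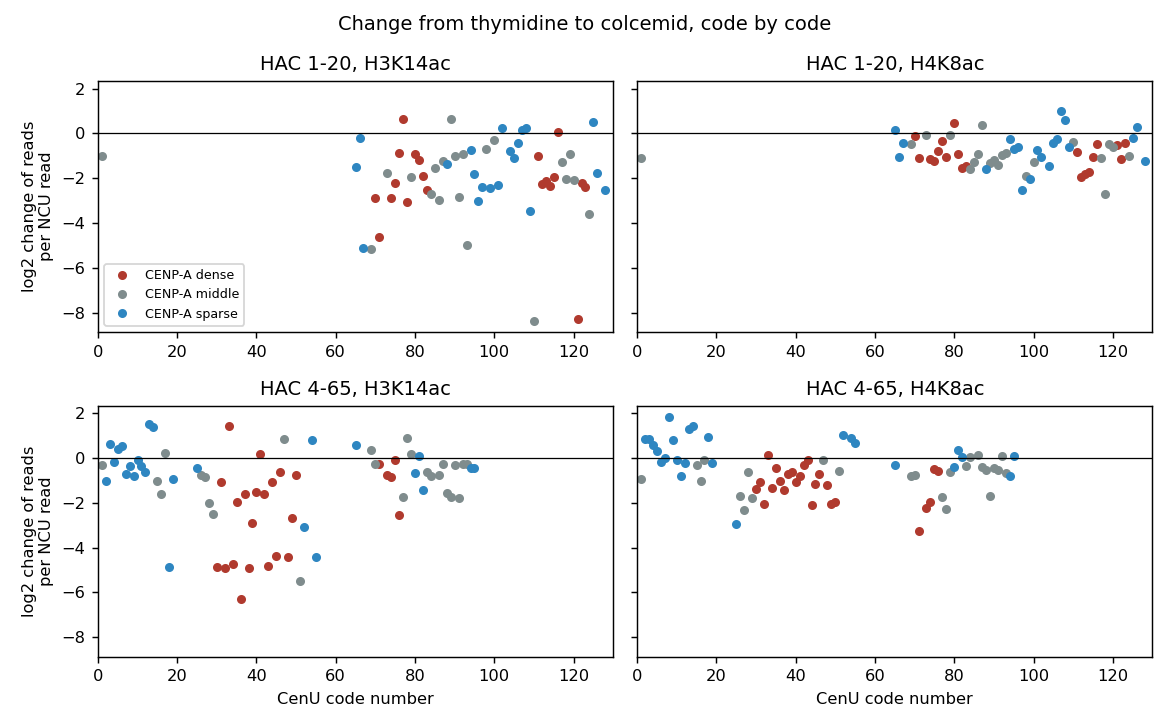
The log2 change of reads per NCU read from thymidine to colcemid is plotted against the CenU code number, with 1 point per carried code, coloured by CENP-A class, for each line (rows) and acetylation (columns). Most points lie below 0, H3K14ac holds single codes down to -8.36 between neighbours near the others, and H4K8ac in HAC 4-65 is above 0 on much of T002 to T014 and below 0 on nearly all of T030 to T050.

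From thymidine to colcemid the acetylations differed in how neighbouring codes moved. Between codes of consecutive number, the changes of H4K8ac from thymidine to colcemid had a correlation of 0.37 in HAC 1-20 (55 pairs of neighbours) and 0.51 in HAC 4-65 (67 pairs), whereas those of H3K14ac had 0.03 and 0.07. Against CENP-A density, the H4K8ac change had a correlation of -0.32 over 61 codes and -0.66 over 75 codes, and the H3K14ac change of -0.19 and -0.34. The change of H3K14ac and that of H4K8ac had a Pearson correlation of 0.09 and 0.20 across codes. All these values describe codes that share their libraries. The median counting error of a change was 0.09 for H3K14ac in HAC 1-20 and 0.28 in HAC 4-65, below the SD over codes of 1.79 and 1.80. For H4K8ac it was 0.06 and 0.14, below SDs of 0.72 and 1.02. These errors cover the counting of reads only, and PCR reads are not independent molecules. An SD above them therefore does not show that codes changed. At the other steps the neighbours of H4K8ac were no longer alike. From colcemid to release their correlation was 0.09 and -0.11, against -0.14 and -0.17 for H3K14ac. From thymidine to release it was 0.02 and -0.17, against -0.11 and -0.03.

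The H3K14ac changes were wider and lay on single codes. In HAC 1-20, T125 went from 1.90% to 7.50% of the CenU reads at colcemid and back to 1.28% after release, while its H4K8ac share was 1.13%, 1.72% and 2.17%. T089 went from 0.569% to 2.52% and then to 0.105%. The codes T110 and T121, outside the naming rule, were picked after their values were seen: T110 went from 1352 reads after thymidine to 5 after colcemid, and T121 from 1517 to 6, while the H4K8ac reads were 859 and 1957 on T110 and 744 and 1529 on T121. After release both were back, with 1176 and 1107 H3K14ac reads. In HAC 4-65 the thymidine library of H3K14ac left only 4 codes with at least 100 reads at both stages, of which T091 had the largest change, from 4.39% to 1.99%.

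From colcemid to release, H4K8ac per NCU read was at least 2-fold higher on 26 of 61 codes in HAC 1-20 (42.6%) and at least 2-fold lower on 4 (6.56%). In HAC 4-65 it was higher on 40 of 75 (53.3%) and lower on 22 (29.3%), in the library with widely scattered NCU codes. At this step 73.7% of the NCU codes and 54.7% of the CenU codes of HAC 4-65 changed H4K8ac share at least 2-fold in either direction. In HAC 1-20 it was 12.5% of the NCU and 26.2% of the CenU codes. The classes went opposite ways in the lines. In HAC 4-65, 16 of 25 dense and 10 of 25 sparse codes were at least 2-fold higher, and in HAC 1-20 8 of 20 dense and 12 of 20 sparse codes. For H3K14ac the codes went both ways in HAC 1-20, with 24 of 61 higher (39.3%) and 21 lower (34.4%). In HAC 4-65, 16 of 75 were higher (21.3%) and 10 lower (13.3%), and 10 of the 16 were dense codes. In that line T076, a dense code, had the largest gain in H3K14ac share, from 0.206% to 1.28%, and T013, a sparse code, the largest loss, from 1.18% to 0.366%.

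Across the whole course, from thymidine to release, H3K14ac per NCU read ended at least 2-fold lower on 28 of 61 codes in HAC 1-20 (45.9%) and higher on 8 (13.1%). In HAC 4-65 it ended lower on 28 of 75 (37.3%) and higher on 0 (0%). H4K8ac ended lower on 13 of 61 (21.3%) and higher on 4 (6.56%) in HAC 1-20, and lower on 23 of 75 (30.7%) and higher on 29 (38.7%) in HAC 4-65. Over this course 68.4% of the NCU and 54.7% of the CenU codes of HAC 4-65 changed H4K8ac share at least 2-fold. In HAC 1-20 it was 16.7% and 29.5%.

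The 27 CenU codes carried by both lines were also tested across the lines with edgeR's quasi-likelihood test, together with the 95 NCU codes carried by both, which set the library size. From thymidine to colcemid the fitted change of H3K14ac was below 0 for 27 of the 27 CenU codes, with a median of -1.22, and that of H4K8ac for 26 of 27, with a median of -0.72. Of the 95 NCU codes, 48 and 50 were below 0. Since NCU reads set the library size, the fall of the CenU to NCU ratio enters the value of every CenU code. The counts of CenU codes thus restate that fall over codes that share their libraries. No single CenU code passed an adjusted p of 0.05 in the 6 stage contrasts or in the 3 contrasts of H4K8ac against H3K14ac, against 0 of 122 codes over all (0%). At an unadjusted p under 0.05, between 1 and 4 CenU codes per contrast passed for the stage changes and between 0 and 1 for the differences. DESeq2 likewise called 0 CenU codes in each contrast, with between 0 and 6 at an unadjusted p under 0.05 for the stage changes and between 0 and 7 for the differences. The lowest adjusted p of a CenU code was 0.20, for T088 in H3K14ac from thymidine to colcemid, at a log2 change of -1.39 (SE 0.30). Without the 2 widely scattered release libraries, T091 passed in that contrast, at -2.32 (SE 0.38) and an edgeR adjusted p of 0.0125. In H4K8ac after release the median NCU code itself stood at -0.65 against colcemid, so that fitted values there are relative to NCU codes that differed as well.

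The third comparison set the acetylations against each other on each code, as the log2 ratio of the H4K8ac share to the H3K14ac share, in which the copy number of a code cancels. CENP-A dense codes carried more H4K8ac relative to H3K14ac than sparse codes in both lines at every stage. In HAC 1-20 after thymidine the median was 0.33 on dense, -0.10 on middle and -0.41 on sparse codes. In HAC 4-65 it was 0.27, -0.08 and -0.29. At this stage the share of dense codes above 0 was 14 of 20 in HAC 1-20 against 26 of all 61 (42.6%), and 19 of 25 in HAC 4-65 against 39 of all 75 (52%). After colcemid it was 14 of 20 against 32 of 61 (52.5%), and 17 of 25 against 37 of 75 (49.3%). After release it was 13 of 20 against 38 of 61 (62.3%), and 13 of 25 against 34 of 75 (45.3%). After colcemid the medians of dense, middle and sparse codes were 1.04, -0.24 and -0.54 in HAC 1-20, and 0.74, -0.17 and -0.02 in HAC 4-65. After release they were 0.86, 0.32 and 0.48, and 0.13, -0.02 and -0.97. The middle median was thus below the sparse one after colcemid in HAC 4-65 and after release in HAC 1-20. Across codes the ratio and CENP-A density had a Pearson correlation of 0.36 and 0.55 after thymidine. It was 0.24 and 0.19 after colcemid, and 0.11 and 0.20 after release.

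The dense minus sparse difference of this ratio was 0.85 ± 0.43 (SD over 6 pairs of line and stage), a factor of 1.81, and was positive in 6 of 6 pairs, from 0.38 to 1.58. The exact sign-flip permutation test gave p = 0.03125, two-sided and the smallest possible, and 0.046875 after adjustment. The pairs of a line share the same dense and sparse codes, set from its untreated cells, so the 6 differences are not independent. Without the pairs at release the mean was 0.91, with 4 pairs and no p below 0.125 possible. The CENP-A density that set the classes used the untreated libraries of both acetylations with equal weight, and with the 4 other marks in their place the difference was 0.59 with the same p in the exact test. Single codes kept little of their order between stages: across codes the ratio after thymidine and after colcemid had a Pearson correlation of -0.06 in HAC 1-20 and 0.05 in HAC 4-65. Between the lines, over the 27 shared codes, it was 0.06 after thymidine, -0.44 after colcemid and 0.31 after release.

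**Figure D3:**
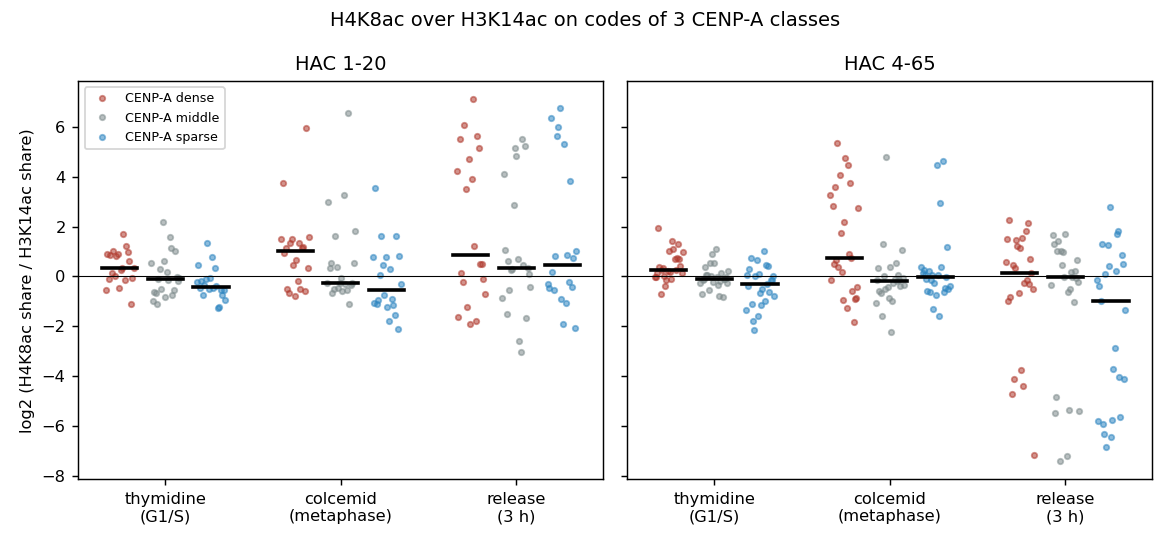
The log2 ratio of the H4K8ac to the H3K14ac share is plotted for each carried code at each stage, by CENP-A class, for HAC 1-20 (left) and HAC 4-65 (right), with a bar at the median. The dense median is above the sparse median in all 6 cases, while the points spread from -2.13 to 2.19 after thymidine and from -7.41 to 7.11 after release.

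Averaged over the stages, the highest ratios in HAC 1-20 were those of T067 (3.15, sparse), T114 (2.67, dense) and T097 (2.59, sparse). The lowest were those of T082 (-1.05, dense), T107 (-0.89, sparse) and T113 (-0.81, dense). Sparse codes were thus among the highest and dense codes among the lowest, against the order of the class medians. For T067 the ratio was -0.45 after thymidine, 3.55 after colcemid and 6.34 after release. Its H3K14ac share was 2.33%, 0.187% and 0.0341% in that order, whereas its H4K8ac share was 1.70%, 2.21% and 2.81%. These ranks rested on the widely scattered H3K14ac release library. Over thymidine and colcemid alone T067 was at 1.55, T114 at 1.18 and T097 at 0.90, and T110 (2.91), T121 (2.43) and T071 (2.31) were the highest. In the same way T082 was at -0.62, T107 at -1.22 and T113 at -0.32, and T125 (-1.44), T108 (-1.38) and T107 were the lowest. T082, a dense code, had H3K14ac shares of 1.65%, 1.25% and 6.77%, and H4K8ac shares of 1.21%, 0.720% and 1.79%.

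In HAC 4-65 the highest were T048 (2.09, dense), T055 (2.07, sparse) and T036 (2.02, dense). The lowest were T078 (-2.77, middle), T029 (-2.65, middle) and T008 (-2.64, sparse). For T036, a dense code, H3K14ac took 1.70% of the CenU reads after thymidine, 0.0337% after colcemid and 1.34% after release, against 2.08%, 1.40% and 1.81% for H4K8ac. The thymidine value of T036 rests on 47 H3K14ac reads. T048 had a similar course, with H3K14ac shares of 0.689%, 0.0506% and 0.890%. The low values of T078, T029 and T008 came from the release library of H4K8ac, and over thymidine and colcemid alone they were at -0.56, -0.27 and -0.79, above T012 (-1.43) and T009 (-1.39). T036, T048 and T055 were then at 2.81, 2.22 and 2.18, and T045 (2.93) was the highest.

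The last comparison was the spread of the codes within a library, taken as the SD over carried codes of the log2 share against the median of the 6 other libraries of the same line and antibody. Those 6 were the untreated library, the libraries of the other stages, and the siControl, siKAT7 and siHJURP libraries. Depleted cells thus helped to set the median and the range. In HAC 1-20 the spread was 0.94 after thymidine, 1.75 after colcemid and 2.85 after release for H3K14ac, and 0.50, 0.60 and 1.14 for H4K8ac. In HAC 4-65 it was 0.71, 1.65 and 0.79 for H3K14ac, and 0.52, 0.89 and 2.76 for H4K8ac. A spread above 1.5 was seen in 8 of the 98 libraries of both lines and in 4 of the 12, the wide release libraries and both colcemid libraries of H3K14ac. H3K14ac was wider than H4K8ac in 5 of 6 pairs, the exception being release in HAC 4-65, and the mean difference of -0.38 did not pass the exact sign-flip permutation test (p = 0.50, two-sided).

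**Figure D4:**
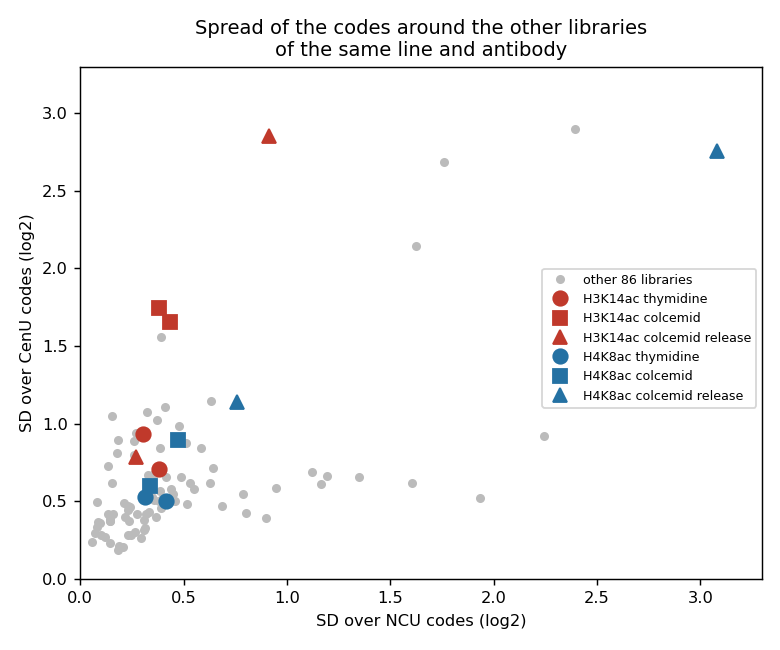
The SD over CenU codes is plotted against the SD over NCU codes, both on the log2 scale, with 1 point for each of the 98 libraries of both lines, the 12 acetylation libraries in colour. The colcemid libraries of H3K14ac and its release library in HAC 1-20 are wide on CenU with an SD under 1 on NCU, while the H4K8ac release library of HAC 4-65 is wide on both.

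The wide release libraries differed on the NCU codes. In the H3K14ac release library of HAC 1-20 the SD was 2.85 over CenU and 0.91 over NCU codes, with counting errors of 0.17 and 0.03. In the H4K8ac release library of HAC 4-65 it was 2.76 and 3.08, with counting errors of 0.36 and 0.59. The latter NCU spread ranked first of the 98 libraries. The colcemid libraries of H3K14ac had an NCU spread of 0.38 and 0.43 beside their CenU spread of 1.75 and 1.65.

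In the H3K14ac release library of HAC 1-20, 39 of the 61 carried codes lay outside the range of the 6 other libraries (63.9%), with 12 above and 27 below. At least 4-fold below the median were 22 codes (36.1%), and at least 4-fold above it 2 (3.28%). The codes furthest below their median were T109 with 11 reads, T099 with 11 and T111 with 16, at 0.0110%, 0.0110% and 0.0161% of the CenU reads, where the medians of the other libraries were 1.08%, 0.958% and 1.28%. Those furthest above it, by fold, were T105 at 5.50%, T101 at 2.84% and T118 at 4.74%, against medians of 1.09%, 0.611% and 1.30%. T109 was nearly absent from the H4K8ac release library of the same line as well, with 14 reads, while it had 484 and 958 H4K8ac reads after thymidine and colcemid.

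In the H4K8ac release library of HAC 4-65, 53 of the 75 carried codes lay outside the range of the others (70.7%), with 24 above and 29 below, and 23 were at least 4-fold below the median (30.7%) and 3 at least 4-fold above it (4%). T078 and T029 had 1 read each and T076 had 2, against median shares of 1.39%, 0.893% and 1.38% in the other libraries. T013 at 2.53%, T015 at 4.77% and T050 at 3.28% were furthest above their medians by fold, against 0.413%, 1.06% and 0.783%. In both libraries the codes far below outnumbered those far above, and codes of every class were among the low ones. In HAC 4-65 the falls from colcemid to release leaned to the sparse class. The H4K8ac share fell at least 2-fold on 14 of 25 sparse, 6 of 25 middle and 5 of 25 dense codes, against 25 of all 75. The dense minus sparse values of that line at release include these codes. In HAC 1-20 the H3K14ac share fell at least 2-fold on 9 of 20 sparse, 7 of 21 middle and 9 of 20 dense codes. The correlation of the deviation with CENP-A density was 0.03 and 0.09, and that between codes of consecutive number -0.07 and -0.20. In the thymidine libraries of H4K8ac the latter was 0.47 and 0.45.

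After colcemid H3K14ac was at least 4-fold low on 6 of 61 codes in HAC 1-20 (9.84%) and on 13 of 75 in HAC 4-65 (17.3%). Of the 6 codes, 2 were also low after release (33.3%), which is near the 36.1% of all carried codes that were low in that library. In HAC 4-65 the H3K14ac share fell at least 2-fold from thymidine to colcemid on 12 of 25 dense, 7 of 25 middle and 3 of 25 sparse codes. No dense or sparse code of that line had at least 100 H3K14ac reads at both stages. In HAC 1-20 such falls were on 6 of 20 dense, 7 of 21 middle and 4 of 20 sparse codes.

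**Figure D5:**
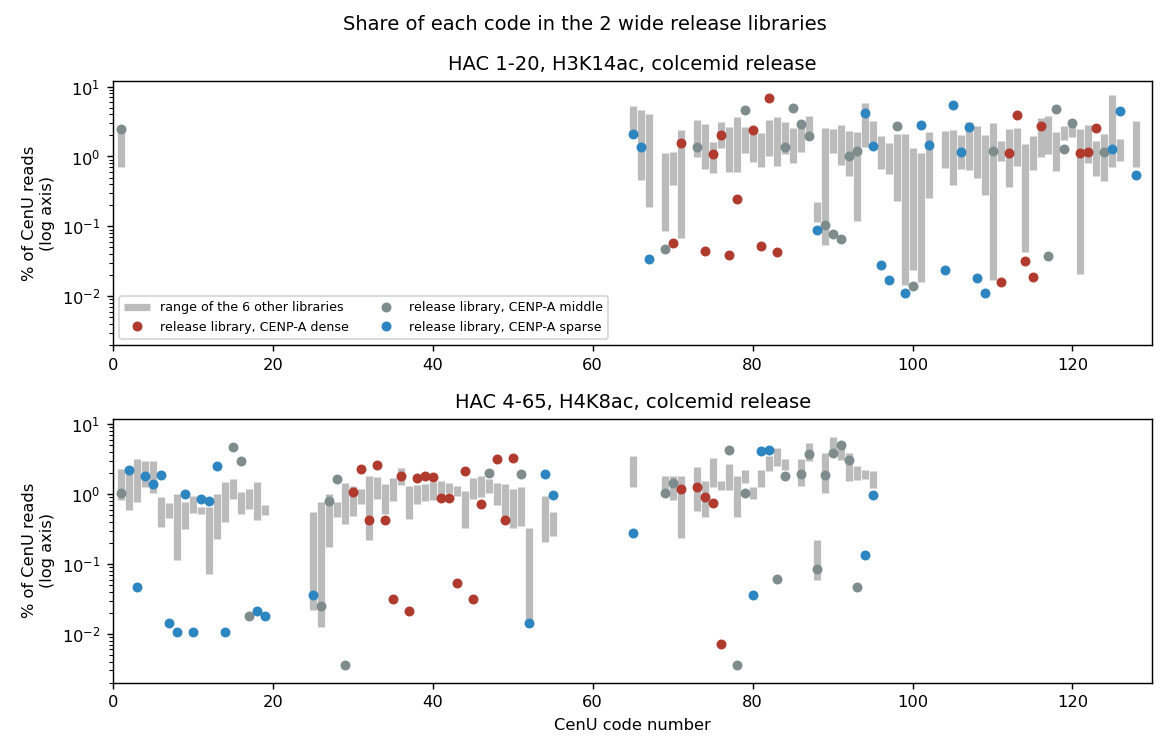
The share of each carried code among the CenU reads, on a log axis, is plotted against the code number in the H3K14ac release library of HAC 1-20 (top) and the H4K8ac release library of HAC 4-65 (bottom), with grey bars for the range of the 6 other libraries of the line and antibody. Codes of each CENP-A class lie far below the grey bars, and fewer lie above them by a smaller factor.

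The H3K14ac release library of HAC 1-20 also had 7.30% of its CenU reads on codes that the line did not carry, against 0.63% to 1.91% in the other 11 libraries. This was not particular to release, since the untreated H3K14ac library of the same line was at 16.4% and the untreated H4K8ac library at 6.76%. Most of these lay on 48 codes carried by HAC 4-65 only, and 5 of the 48 reached at least 0.1%, led by T040 with 1197 reads and T045 with 1.13% of the CenU reads. Its unmatched reads were 10.4% of all reads, the highest of the 12, where the range of the others ended at 9.05%. The part of these reads in the spread was not tested.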

How the data were processed

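Position codes of immunoprecipitated DNA were amplified by the authors in a competitive PCR and sequenced. Trimming used cutadapt 4.0, reads were aligned to the code sequences by Bowtie, and the authors deposited raw read counts per code, taken from SAMtools and not normalized. Intervals and counting errors cover counting error only, since PCR reads are not independent molecules. Codes of 23 bases were read from the study's list.

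T codes were read as CenU and L codes as NCU from the templates in the study's methods. Shares used all T reads. Ratios used the reads of all 384 L codes, of which 96 and 95 were carried, with a pseudocount of 0.5 on the log2 scale. CENP-A density was log2 CENP-A minus the mean of 6 marks in untreated cells. Codes were named where they were among the 3 largest rises or falls of a step with at least 100 reads in both libraries, the 3 highest or lowest ratios of a line, or the 3 furthest from the median in a wide release library. edgeR 4.0.16 fitted 122 codes in 12 libraries with 4 residual degrees of freedom, and DESeq2 1.42.0 was an alternative. Both were tested on simulated data with changes far larger than 2-fold, which does not tell whether 2-fold changes would be found. Single values used exact sign-flip tests. Members, lists and tests were chosen with earlier results of these data known.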

Additional observations from a re-analysis of the deposited data

Results flagged for a closer look

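The following results had opposite signs in the lines, with 1 library behind each point, and the differences were not tested. The change of the log2 ratio of CenU to NCU reads in H3K14ac from colcemid to release was 1.15 in HAC 1-20. It was -0.03 in HAC 4-65, which was nearly unchanged, a difference of -1.18. In H4K8ac from thymidine to release it was -0.06 in HAC 1-20, which was nearly unchanged, and 0.79 in HAC 4-65, a difference of 0.85. In H4K8ac from colcemid to release the dense minus sparse change of the share was -0.38 in HAC 1-20 and 1.5 in HAC 4-65, a difference of 1.88. Each of them uses a widely scattered release library in 1 of the lines.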

How the results depend on the processing

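Of 102 values recomputed under other settings, 77 kept their direction and their side of the threshold, or moved by less than the spread. Of these 77, 27 for stage changes per code and 15 for differences between the acetylations were counts of called CenU codes. These counts were 0 under both settings and have no direction. Of the median changes of dense codes, 16 moved and 18 did not. The exact tests of the CenU to NCU ratio and of the dense minus sparse ratio lost their threshold with fewer pairs, since 4 pairs cannot go below 0.125 and 5 not below 0.0625: the means were 1.15 and 0.91 without the pairs at release and, as alternatives chosen after seeing the data, 1.42 and 0.91 without the shallow thymidine pair of HAC 4-65 and 1.36 and 0.70 without the colcemid pairs. edgeR called 1 CenU code for H3K14ac from thymidine to colcemid without the wide release libraries, and 1 each from colcemid and from thymidine to release with no filter on carried codes, T056, which neither line carried. Among the NCU codes, which are the reference, the first of these settings called 5 for H4K8ac from colcemid to release and 2 from thymidine to release, no filter called L164 and L228, and DESeq2 called L051. With carried codes only, the CenU to NCU difference was 1.38 (exact p = 0.03125).

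The median change of the dense codes per NCU read, as the mean of the lines, moved by more than the SD between the lines under these settings. For H3K14ac to colcemid it went from -1.92 to -0.86 with CenU reads as the reference. For H3K14ac from colcemid to release it went from 0.67 to 0.11 with CenU reads, 0.61 with a split at the median, 1.03 with summed reads and 0.99 with at least 100 reads. For H3K14ac from thymidine to release it went from -0.96 to -0.47, -1.21 with the 4 other marks, -0.55 with summed reads and -1.07 with a pseudocount of 5. For H4K8ac to colcemid it went from -1.06 to -0.43 with CenU reads, -1.07 with the 4 other marks, -0.98 with summed reads and -1.05 with at least 100 reads. For H4K8ac from colcemid to release it went from 1.21 to 0.21 with CenU reads, and from thymidine to release from 0.13 to -0.24 and, with summed reads, 0.35. That last value changed sign with the reference, and the cause was not tested. With 1 library per group there was no replicate number to use as a block, and the pairs in the exact tests were those of line and stage. Of the 12 libraries, the root mean square counting error over CenU codes was highest in the HAC 4-65 libraries of H4K8ac after release (0.36) and of H3K14ac after thymidine (0.30).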

Other observations

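The order of the acetylations held in the other treatments of the same lines. In untreated cells and after siControl, siKAT7 and siHJURP, H4K8ac had more CenU reads per NCU read than H3K14ac in 8 of 8 pairs, by 0.84 to 1.57 on the log2 scale. The dense minus sparse difference of the H4K8ac to H3K14ac ratio was positive in 6 of 6 siRNA pairs, from 0.34 to 3.68. The spread over codes was wider for H3K14ac than for H4K8ac in 8 of 8 of these pairs, by 0.26 to 1.70. No test was made on these pairs, since the siRNA treatments differ in what they deplete.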
